A study of Mus musculus with 6 samples.

Results

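Fetal Kupffer and erythroblastic island macrophages were examined here among single cells of mouse embryos. A barcode, the tag that marks the RNA of 1 droplet, was a member if it held at least 1 molecule of Csf1r, the receptor gene of the macrophage growth factor CSF1, and at least 3 of the 6 genes Cd5l, Timd4, Marco, Spic, Il18bp and Clec4f. It also had to hold at most 2 of the 6 microglia genes P2ry12, Sall1, Tmem119, F11r, Slc2a5 and Spint1. Molecules were counted as UMIs, unique molecular identifiers. The rule found 1189 of 34587 kept barcodes, 3.44% of them and 4.23% of the 28127 barcodes with a Csf1r UMI (exact binomial 95% interval 4.00 to 4.47). They are called gated barcodes below, and the remaining 26938 barcodes with a Csf1r UMI are called other Csf1r-positive barcodes. Members were thus chosen by the UMI counts of these genes, so the 12 genes and Csf1r are left out of the results, and no difference below was tested.

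The labels describe 3 groups with n = 2 samples each, all studied with droplet-based sequencing of transcript 3-prime ends. One holds Cx3cr1CreER; R26tdTomato embryos whose mothers received 4-hydroxytamoxifen at E9.5. Another holds Csf1r-Mer-iCre-Mer; Csf1r-EGFP; R26tdTomato embryos whose mothers received it at E8.5. From both, cells of the macrophage and monocyte lineage were taken at E14.5 out of whole-body suspensions, and the last group is total bone marrow of wildtype C57BL/6 mice of 2 months. In the embryos the drug activates Cre in cells that use the Cx3cr1 or Csf1r promoter at that time, and these cells and their progeny then carry the reporter tdTomato, as may any other cell in which the promoter is active. The 4 libraries of the matrix, told apart by a barcode suffix, match no sample label, so groups were not compared. tdTomato, which the wildtype mice are not labelled as carrying, was counted in every library. The whole-body source also means that the organ of each cell was not recorded.

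Kupffer cells are the resident macrophages of the liver, and in the fetus the liver is also the main site of red cell formation. There, macrophages sit at the centre of erythroblastic islands, where they hold on to maturing red cell precursors through adhesion molecules such as VCAM1, engulf the nuclei that these precursors expel, and recycle the iron of haem. The nuclear receptor LXR-alpha, encoded by Nr1h3, is required for the identity of adult mouse Kupffer cells, and Spi-C, encoded by the gate gene Spic, for the iron-recycling macrophages of the adult mouse spleen.

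Libraries 1 to 4 held between 106500620 and 198754246 UMIs. Gated barcodes numbered 401, 285, 200 and 303 in libraries 1 to 4, or 5.38, 4.37, 3.78 and 3.42% of the barcodes with a Csf1r UMI. Their median depth was 14638 UMIs, against 14590 in other Csf1r-positive barcodes, and the median mitochondrial share was 2.47 against 2.32%. Of barcode sequences, 761 occurred in more than 1 library, and 38 gated barcodes had a sequence that was also present in another library. A further 66 barcodes met the Kupffer criterion but held over 2 microglia genes, had a median of 20233 UMIs and were placed with other Csf1r-positive barcodes. Levels below are CPM, the UMIs of a gene scaled to a fixed total after summing over barcodes, and intervals cover counting error only. Libraries 3 and 4 stood apart from libraries 1 and 2 in granulocyte RNA: S100a8, a neutrophil alarmin gene, had 27.2, 63.6, 1205 and 1024 CPM in gated barcodes, against 804, 1071, 2986 and 2975 CPM in other Csf1r-positive barcodes. The neutrophil list as a whole summed to 1254 CPM (99.5 to 2580 over libraries) in gated barcodes, against 4428 (1350 to 6875), with 7 of 9 compared genes lower. Its part in other results was not tested. Genes the results turn on are given by library, and values given as a single pair are pooled over libraries.

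The gate genes themselves, given as a description of the choice, stood at 1474 CPM for Cd5l, 1203 for Marco, 426 for Timd4, 248 for Il18bp, 220 for Spic and 82.3 for Clec4f in gated barcodes. In other Csf1r-positive barcodes the highest of them was Timd4, at 14.8 CPM. Timd4 had a UMI in 94.8% of gated barcodes, Cd5l in 83.4% and Clec4f in 34.0%. Among barcodes within the microglia limit, 17614 held none of the 6 gate genes, 5117 held 1 and 947 held 2, while 288 held 3, 283 held 4, 382 held 5 and 236 held 6. At the edge of the rule, barcodes with 3 gate genes had 110 CPM of Vcam1 and 203 of Nr1h3, against 25.5 and 44.7 CPM in barcodes with 2.

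For orientation, the promoter windows of 3 genes that were higher in gated barcodes are shown, the leading genes of the Kupffer list and an iron transporter gene. They come from RefSeq (GRCm38.p6, the mm10 build) and run from 250 bases before to 50 bases after the annotated start, 5′ to 3′ on the strand of the gene. The first Nr1h3 window of the table lies at chr2:91195067-91195366 on the minus strand, Fcna at chr2:25627925-25628224 on the minus strand and Slc11a1 at chr1:74374953-74375252 on the plus strand. Capitals mark matches to the motifs searched on both strands: TGACNNNGC (antioxidant response), CACGTG (E-box), AGGAAGT (PU.1 and Spi-C core), TGCTGA (MAF half-site) and AGGTCA (nuclear receptor half-site).
Nr1h3: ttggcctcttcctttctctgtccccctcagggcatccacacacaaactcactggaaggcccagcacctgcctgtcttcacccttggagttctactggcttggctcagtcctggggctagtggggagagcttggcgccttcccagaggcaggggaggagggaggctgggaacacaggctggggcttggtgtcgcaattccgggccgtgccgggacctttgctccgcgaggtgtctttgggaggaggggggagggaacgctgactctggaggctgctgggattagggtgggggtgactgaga
Fcna: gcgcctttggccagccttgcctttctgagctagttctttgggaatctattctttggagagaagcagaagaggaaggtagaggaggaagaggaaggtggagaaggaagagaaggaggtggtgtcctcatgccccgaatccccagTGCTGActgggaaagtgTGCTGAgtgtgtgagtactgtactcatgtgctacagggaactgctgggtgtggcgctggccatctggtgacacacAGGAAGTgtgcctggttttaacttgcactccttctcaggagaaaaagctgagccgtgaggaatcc
Slc11a1: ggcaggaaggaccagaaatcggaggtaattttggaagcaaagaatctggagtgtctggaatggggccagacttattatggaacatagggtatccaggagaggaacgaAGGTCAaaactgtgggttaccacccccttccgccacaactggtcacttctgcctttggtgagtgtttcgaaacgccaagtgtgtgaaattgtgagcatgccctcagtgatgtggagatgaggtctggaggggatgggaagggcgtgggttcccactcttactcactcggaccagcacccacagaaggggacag
The Fcna window held AGGAAGT starting at -15 and TGCTGA starting at -107 and -90, and the Slc11a1 window held AGGTCA starting at -143, while the Nr1h3 window and those of Clec1b and Blvrb, looked at in the same way and not printed, held none of the 5 motifs. Windows of the same length were given for 27025 genes, and 9.57% of them held AGGAAGT, 19.1% TGCTGA and 16.0% AGGTCA. Of the 126 genes that were at least 2-fold higher in gated than in other Csf1r-positive barcodes, 100 had a window, and 16 of these held AGGAAGT, 15 TGCTGA and 9 AGGTCA. Over the 2441 compared genes with a window the shares were 11.6, 14.3 and 13.4%. A match describes letters in a window and says nothing of binding.

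Kupffer genes that took no part in the choice were also more abundant in gated barcodes. The list of Kupffer identity genes outside the gate had 22 members, of which 12 had at least 50 CPM in gated or in other Csf1r-positive barcodes and were compared. Of these, 11 were at least 2-fold higher and none lower. Their log2 differences had a median of 2.36, between 2.14 and 2.62 in single libraries. Over all 3064 features compared the median was -0.02, with 4.11% called at least 2-fold higher and 3.07% lower. A gene was called when the ratio of CPM + 10 was at least 2-fold in the pooled sums and had the same sign in every library with at least 30 barcodes of both sets. Of the 12 genes, 8 had under 50 CPM in other Csf1r-positive barcodes and entered only through the gated side, so the count is no measure of the whole list. Over all 22 members with no filter the median was 1.31, and 21 had a higher CPM in gated barcodes.

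Nr1h3 had 275, 292, 227 and 329 CPM in gated barcodes of libraries 1 to 4, against 10.8, 10.2, 6.39 and 6.54 CPM in other Csf1r-positive barcodes. Fcna, which encodes ficolin-A, a lectin that activates complement, had 784, 913, 687 and 604 CPM in gated barcodes and 54.1, 63.8, 31.7 and 27.5 CPM in the others. In neither gene did the libraries of the 2 sets overlap, and pooled log2 differences were 4.02 for Nr1h3 and 3.84 for Fcna. The share of all compared features whose libraries likewise did not overlap was not counted, here or for the genes below. Clec1b, the podoplanin receptor CLEC-2, had 150, 177, 102 and 83.7 CPM in gated barcodes, against at most 3.29 CPM in any library of the others. Dmpk, a muscle-type protein kinase, stood at 129 against 2.99 CPM, and Cdh5, the VE-cadherin gene best known from endothelium, at 106 against 4.196 CPM.

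The endothelial list had 24 genes, of which 4 were compared. Of these, Cdh5 was higher. The hyaluronan receptor Lyve1 (84.4 against 206 CPM), also a tissue macrophage gene, and the secreted factor Egfl7 (19.01 against 50.7 CPM) were lower. The summed level of the endothelial list was 595 CPM (447 to 723 over libraries) against 585 (456 to 707). Its median log2 difference was -0.54 and ran from -0.65 to 1.01 over the processing settings tried, so no direction is read for the list. Cd38, an enzyme that consumes NAD, stood at 156 against 18.6 CPM, and Il1a, the interleukin-1 alpha gene, at 83.1 against 10.4 CPM. The prostaglandin-pathway genes Ptgs1 (348 against 120 CPM) and Hpgd (179 against 79.0 CPM) had log2 differences of 1.47 and 1.09. Folr2, the folate receptor beta, was the compared member that did not pass, at 182 against 103 CPM.

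The other 10 Kupffer genes lay under 50 CPM on both sides. Several of them were nevertheless low in other Csf1r-positive barcodes: Paqr9 had 22.9 against 0.459 CPM, Cd207, which encodes the lectin langerin, 12.5 against 0.137 CPM, and the potassium channel gene Kcna2 9.30 against 0.0992 CPM. Vsig4, a complement receptor that is abundant in adult mouse Kupffer cells, had 7.06, 9.01, 5.12 and 0.512 CPM in gated barcodes, against 0.646, 1.21, 1.27 and 0.400 CPM in the others. Cxcl13 was near 0, at 0.102 against 0.198 CPM. Measured against the label, Kupffer genes were present, and the adult marker Vsig4 was low. At full depth Vsig4 had a UMI in 4.46% of gated barcodes, against 0.538% of other Csf1r-positive barcodes. Among gated barcodes, Vsig4 was near 0 only in the library with 0.512 CPM.

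**Figure D1:**
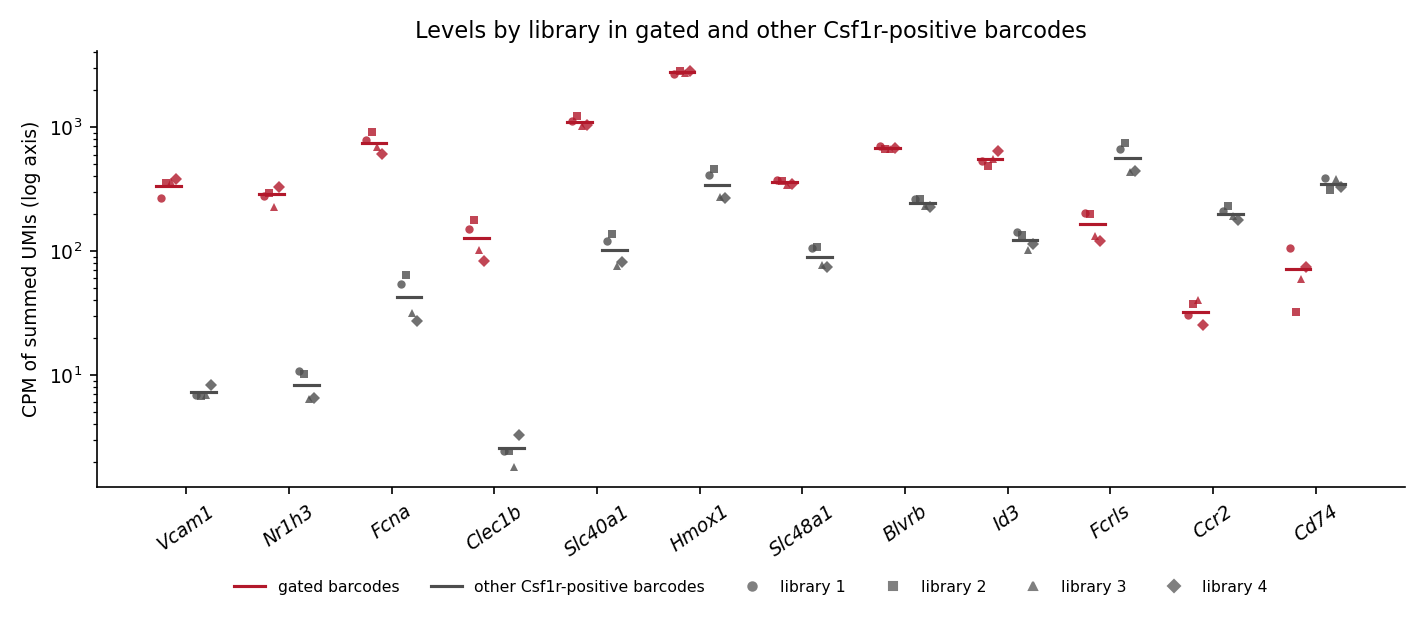
Levels of 12 genes in gated barcodes (red, left of each pair) and other Csf1r-positive barcodes (grey), as CPM of summed UMIs on a log axis, with 1 symbol for each of 4 libraries and a line at the pooled value. The 12 genes were picked for display, and their red and grey libraries do not overlap. The first 9 lie higher in gated barcodes and Fcrls, Ccr2 and Cd74 lower.

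Vcam1, the adhesion molecule of erythroblastic islands, had the largest log2 difference of all compared genes, 4.32. It had 265, 354, 357 and 378 CPM in gated barcodes of libraries 1 to 4, against 6.93, 6.72, 6.82 and 8.25 CPM in other Csf1r-positive barcodes. With every barcode reduced at random to 4000 UMIs, 603 of 1067 gated barcodes (56.5%, exact binomial 95% interval 53.5 to 59.5) still held a Vcam1 UMI, against 613 of 24905 other Csf1r-positive barcodes (2.46%). The reduction left out 122 gated and 2033 other barcodes that were too shallow, and without it the shares were 75.2 and 5.86%. Barcodes without Csf1r but with at least 3 of 4 hepatocyte genes had a share of 36.1% (22 of 61, median depth 12620 UMIs), while monocyte-like barcodes with Ccr2, described below, had 0.617% (median 18927 UMIs).

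Of 21 erythroblastic island genes outside the gate, 13 were compared, 8 were at least 2-fold higher and none lower. The median was 1.06 on the log2 scale, between 0.90 and 1.22 in single libraries. Of the 13 genes, 3 had under 50 CPM in other Csf1r-positive barcodes and entered only through the gated side. With no filter the median over all 21 members was 0.69. Tgm2, tissue transglutaminase, which binds dying cells to phagocytes, stood at 145 against 10.3 CPM. Igf1, a growth factor, had 440, 459, 436 and 408 CPM in gated barcodes and 130, 135, 92.3 and 97.0 CPM in the others. Every gated library stood above every library of the others for Igf1. Maf, a transcription factor that is required for erythroblastic islands in the mouse fetal liver, showed no such difference, at 267 against 270 CPM. Mertk, a receptor for dying cells, stood at 74.5 against 20.3 CPM, Hebp1, a haem-binding protein, at 251 against 90.6 CPM, and Adgre1, which encodes F4/80, at 515 against 242 CPM. Dnase2a, the lysosomal nuclease that digests the DNA of engulfed erythroblast nuclei, had 169 against 78.6 CPM, a log2 difference of 1.02.

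Some genes used for island macrophages in adult mice had low levels. Siglec1, a sialic acid receptor, had 10.3 against 2.96 CPM and Cd163, the receptor for haemoglobin-haptoglobin complexes, 2.40 against 1.48 CPM. Epor, the erythropoietin receptor, had 19.7 against 15.2 CPM, and Klf1, an erythroid transcription factor also reported in island macrophages, 6.08 against 14.4 CPM. Maea, an adhesion molecule for erythroblasts, stood at 60.9 against 60.0 CPM.

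Many haem and iron recycling genes were higher in gated barcodes. Of 36 genes on the list, 34 are features under their listed symbols and 16 were compared, of which 8 were at least 2-fold higher and none lower. The median was 1.02 on the log2 scale, between 0.82 and 1.16 in single libraries. With no filter the median over the 34 features was 0.24, and 24 of them had a higher CPM in gated barcodes. Summed over the list, gated barcodes held 40677 CPM (40168 to 42110 over libraries), against 19345 (16990 to 22146) in other Csf1r-positive barcodes.

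The genes can be ordered along the path of haem. Slc48a1, which moves haem out of the phagolysosome, had 374, 367, 342 and 350 CPM in gated barcodes, against 106, 107, 77.2 and 74.9 CPM in other Csf1r-positive barcodes. Hmox1, haem oxygenase 1, which frees the iron, had 2665, 2830, 2706 and 2856 CPM in gated barcodes and 410, 455, 272 and 268 CPM in the others. Hmox1 differed little among gated libraries, each of which stood above every library of the others, and its pooled log2 difference was 2.98. Blvrb and Blvra, which reduce biliverdin, the other product, stood at 678 against 244 CPM and 279 against 128 CPM. Slc40a1, ferroportin, the iron exporter, had 1128, 1234, 1023 and 1036 CPM in gated barcodes, against 121, 137, 76.2 and 81.3 CPM in the others. Its log2 difference was 3.32, and its lowest gated library stood above its highest library of the others.

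Of the iron import and storage genes, 3 passed the 2-fold line. Slc11a1, a transporter of the phagosome membrane, stood at 265 against 102 CPM, Hfe, a partner of the transferrin receptor, at 204 against 86.9 CPM, and Tfrc, that receptor, at 50.8 against 15.8 CPM. The ferritin genes were the most abundant of the list: Ftl1 had 24599 against 12440 CPM and Fth1 8744 against 4431 CPM, both at a log2 difference of 0.98, just under the 2-fold line. Transferrin (Trf) stood at 556 against 351 CPM. The transcription factor genes Nfe2l2 (105 against 121 CPM) and Bach1 (28.8 against 35.6 CPM), whose products regulate Hmox1, were not higher, and Hamp, the hormone hepcidin, was near 0 at 0.153 against 0.146 CPM.

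Lipid handling moved in part. Of 12 compared genes of LXR and lipid handling 5 were higher, among them Nr1h3 itself, Pltp, phospholipid transfer protein (79.7 against 11.6 CPM), Lpl, lipoprotein lipase (592 against 156 CPM), the phosphodiesterase gene Smpdl3a (201 against 59.0 CPM) and the cholesterol exporter Abcg1 (95.7 against 27.4 CPM). The cholesterol exporter Abca1 stood at 103 against 83.4 CPM and Apoe, apolipoprotein E, at 7361 against 11656 CPM, neither past 2-fold. The inhibitors of differentiation Id3, Id1 and Id2, targets of BMP and TGF-beta signals, were all higher: Id3 had 529, 487, 550 and 641 CPM in gated barcodes, against 143, 135, 102 and 114 CPM in other Csf1r-positive barcodes. Id1 stood at 139 against 37.5 CPM and Id2 at 625 against 266 CPM. Of 20 genes on the BMP and TGF-beta list only 4 were compared, of which 3 were higher and 0 lower. Its median log2 difference was 1.43 and ran from 0.04 to 1.79 over the processing settings tried. Against the Ccr2 gate, defined below, 1 of 4 compared genes was called higher, so no direction is read for the list.

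Uptake and digestion genes were raised for single members only. Of 16 compared efferocytosis genes 3 were higher, namely Mertk, its relative Axl (155 against 31.7 CPM) and the scavenger receptor Msr1 (222 against 70.3 CPM). Gas6, the ligand gene of Mertk and Axl, stood at 125 against 254 CPM. Of 28 lysosomal genes 4 were higher, among them Lipa, the acid lipase (233 against 84.1 CPM), and 1 was lower. Cfp, properdin, which stabilises the complement convertase, was the 1 of 8 complement genes past 2-fold, with 735, 799, 652 and 695 CPM in gated barcodes, against 145, 158, 130 and 123 CPM in the others. The C1q genes, at 2248 CPM for C1qa, 3728 for C1qb and 3061 for C1qc against 1386, 2221 and 1699 CPM, did not pass.

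Of the 94 genes lower in gated barcodes, 30 were on lists of monocytes, neutrophils, microglia, MHC class II, mast cells and lymphocytes, or endothelium. Among all 3064 features compared, of which 3.07% were called lower, these lists had 13, 9, 12, 4, 4 and 4 members in the same order. A gene can be on several lists. Of 13 monocyte genes 10 were lower and 1 higher, with a median log2 difference of -1.62. Ccr2, the chemokine receptor of monocytes, had 30.4, 37.6, 40.3 and 25.4 CPM in gated barcodes, against 210, 230, 191 and 176 CPM in other Csf1r-positive barcodes. The exception was the ribonuclease gene Ear2, at 71.9 against 8.80 CPM. All 4 MHC class II genes compared were lower, such as Cd74, the invariant chain, at 71.9 against 350 CPM, and so were 6 of 12 microglia genes outside the gate, such as Fcrls at 165 against 558 CPM. Barcodes with over 2 microglia gate genes were placed among the others, so the lower microglia genes describe the rule in part. P2ry13, a purine receptor of microglia, was the 1 microglia gene that was higher, at 70.1 against 28.3 CPM. Of 15 compared cytokine genes 4 were higher, among them Ccl24, an eosinophil attractant (619 against 143 CPM), and Il18 (160 against 56.1 CPM), and 4 lower, among them Ccl3 (248.6 against 639 CPM) and Ccl4 (219 against 501 CPM), which attract monocytes. The lower monocyte, neutrophil and MHC class II lists depended on the set compared. Against the Lyve1 Mrc1 gate, defined below, 0 of 7, 0 of 5 and 0 of 1 compared genes were called lower, in that order. The counts were 3 of 10, 0 of 5 and 4 of 4 against the microglia gate, and 13 of 14, 5 of 7 and 5 of 5 against the Ccr2 gate.

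Other transcription factor genes lay in both directions. Of 19 compared 5 were higher and 2 lower, with a median log2 difference of 0.02. Among the higher were Nr1h3, Id1, Id2 and Id3. Mef2c, a factor of myeloid and muscle cells, had 101, 104, 102 and 86.5 CPM in gated barcodes, against 353, 362, 331 and 314 CPM in other Csf1r-positive barcodes. Runx1, a regulator of blood cell emergence, stood at 32.6 against 79.4 CPM.

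Outside the lists, the largest difference belonged to Tspan15, a tetraspanin, with 130, 148, 94.5 and 108 CPM in gated barcodes, against 3.39, 2.93, 3.30 and 3.11 CPM in other Csf1r-positive barcodes. Sdc3, the heparan sulphate proteoglycan syndecan-3, followed at 212 against 15.1 CPM, then Treml4, a receptor that binds dead cells, at 79.0 against 5.82 CPM, and the actin cross-linker gene Actn1 at 215 against 33.9 CPM. Crip2, Cadm1, Epb41l3, Sema6d, Sipa1l1, Hbegf, Acp5, Tmem51, Gngt2, Pilrb1 and Tnfaip2 complete the 15 highest, with log2 differences from 1.93 to 2.33. Acp5, tartrate-resistant acid phosphatase, a gene otherwise used to stain osteoclasts, had 229, 238, 277 and 168 CPM in gated barcodes and 39.2, 39.2, 64.3 and 43.4 CPM in the others. At the lower end stood the protease gene Napsa (26.0 against 168 CPM), the leukocyte actin-binding gene Lsp1 (85.1 against 397 CPM), the progenitor surface gene Cd34 (17.0 against 101 CPM) and Spp1, osteopontin (34.5 against 172 CPM).

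**Figure D2:**
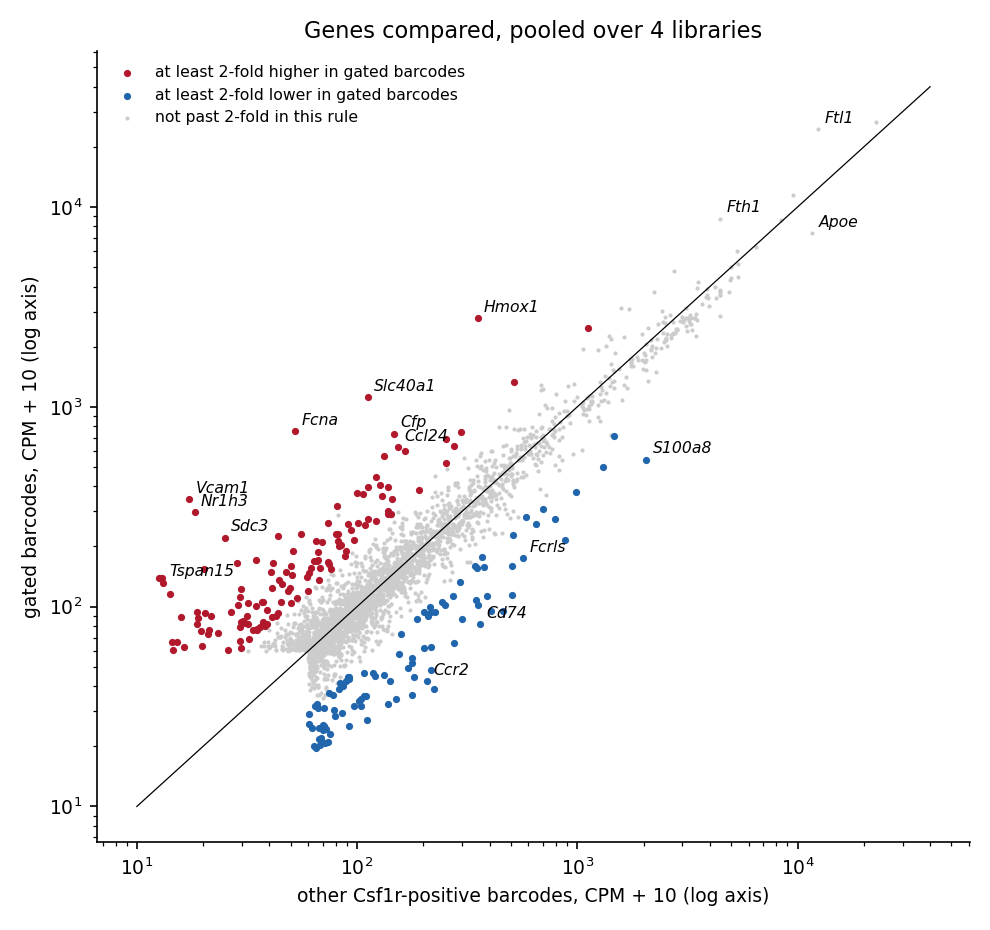
Each of 3064 compared genes by its pooled CPM + 10 in gated barcodes (vertical, log axis) and in other Csf1r-positive barcodes (horizontal, log axis), with the line of equal level. The 126 genes called higher (red) include Vcam1, Nr1h3, Fcna, Hmox1 and Slc40a1; the 94 called lower (blue) include Fcrls, Ccr2 and Cd74, and the ferritin genes Fth1 and Ftl1 lie above the line among the genes not called.

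Gated barcodes were next set against 3 narrower sets of Csf1r-positive barcodes with at most 1 Kupffer gate gene. The Lyve1 Mrc1 gate held 5794 barcodes with both of these tissue macrophage genes, the microglia gate 3067 with at least 3 microglia gate genes, and the Ccr2 gate 6359 with Ccr2 and neither Lyve1 nor Mrc1. The Lyve1 Mrc1 and Ccr2 gates allowed at most 2 microglia genes. The genes of each gate were left out of its comparison. Against the Lyve1 Mrc1 gate 128 of 3060 features (4.18%) were called higher and 99 (3.24%) lower, against the microglia gate 104 of 3061 (3.4%) and 121 (3.95%), and against the Ccr2 gate 270 of 3145 (8.59%) and 155 (4.93%). The comparisons share the gated barcodes.

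The compared Kupffer genes were higher against each of the 3 sets, most of them entering through the gated side. Their median log2 difference was 2.58 against the Lyve1 Mrc1 gate, with 10 of 12 genes called higher, 2.87 against the microglia gate (9 of 12) and 3.44 against the Ccr2 gate (11 of 12). Over all 22 members with no filter, an alternative added after seeing the data, the medians were 1.38, 1.01 and 1.35 in the same order. Vcam1, at 335 CPM in gated barcodes pooled, stood at 6.46 CPM in the Lyve1 Mrc1 gate, 8.68 in the microglia gate and 1.30 in the Ccr2 gate. Of 3365 features, 70 (2.08%) were at least 2-fold higher in gated barcodes than in whichever of the 3 gates was highest, a count taken from pooled values without the condition on libraries.

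The island list had 6 of 13 compared genes called higher against the Lyve1 Mrc1 gate (median 0.82), 5 of 13 against the microglia gate (0.73) and 11 of 13 against the Ccr2 gate (2.02). In the same order, 4, 3 and 5 of the 13 genes had under 50 CPM in these sets and entered only through the gated side. With no filter, the island medians over all 21 members were 0.41, 0.24 and 1.34.

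Fcna separated the sets less evenly, with 743 CPM in gated barcodes against 131 CPM in the Lyve1 Mrc1 gate, 29.0 in the microglia gate and 2.32 in the Ccr2 gate. Iron genes differed most from the Ccr2 gate, with 13 of 16 called higher and a median of 1.60, and less from the Lyve1 Mrc1 gate (5 of 16, 0.51) and the microglia gate (6 of 16, 0.71). Of these 16 genes, 6 had under 50 CPM in the Ccr2 gate and entered only through the gated side. This held for 1 in the Lyve1 Mrc1 gate and 1 in the microglia gate. With no filter, the medians over 34 measured iron genes were 0.59, 0.11 and 0.25, in the order Ccr2, Lyve1 Mrc1 and microglia gate. Hmox1, at 2767 CPM in gated barcodes, had 605 CPM in the Lyve1 Mrc1 gate, 343 in the microglia gate and 95.8 in the Ccr2 gate. Slc40a1, at 1107 CPM, had 217, 101 and 12.6 CPM in the same 3 sets. Blvrb stood at 495 CPM in the Lyve1 Mrc1 gate and did not pass there, with a log2 difference of 0.45.

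The lists of general macrophage function did not stand out against the tissue macrophage sets. Efferocytosis genes had 3 of 16 called higher and 3 lower against the Lyve1 Mrc1 gate (median 0.05), and 2 of 17 higher and 3 lower against the microglia gate (median -0.14). Lysosomal genes had medians of 0.10 and 0.03 in these comparisons and 1.09 against the Ccr2 gate, where 17 of 28 were called higher. Gas6 stood at 125 CPM in gated barcodes against 762 CPM in the Lyve1 Mrc1 gate, and Stab1, a scavenger receptor, at 157 against 834 CPM. Maf stood at 267 against 540 CPM in that set, a log2 difference of -0.99, just short of 2-fold.

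**Figure D3:**
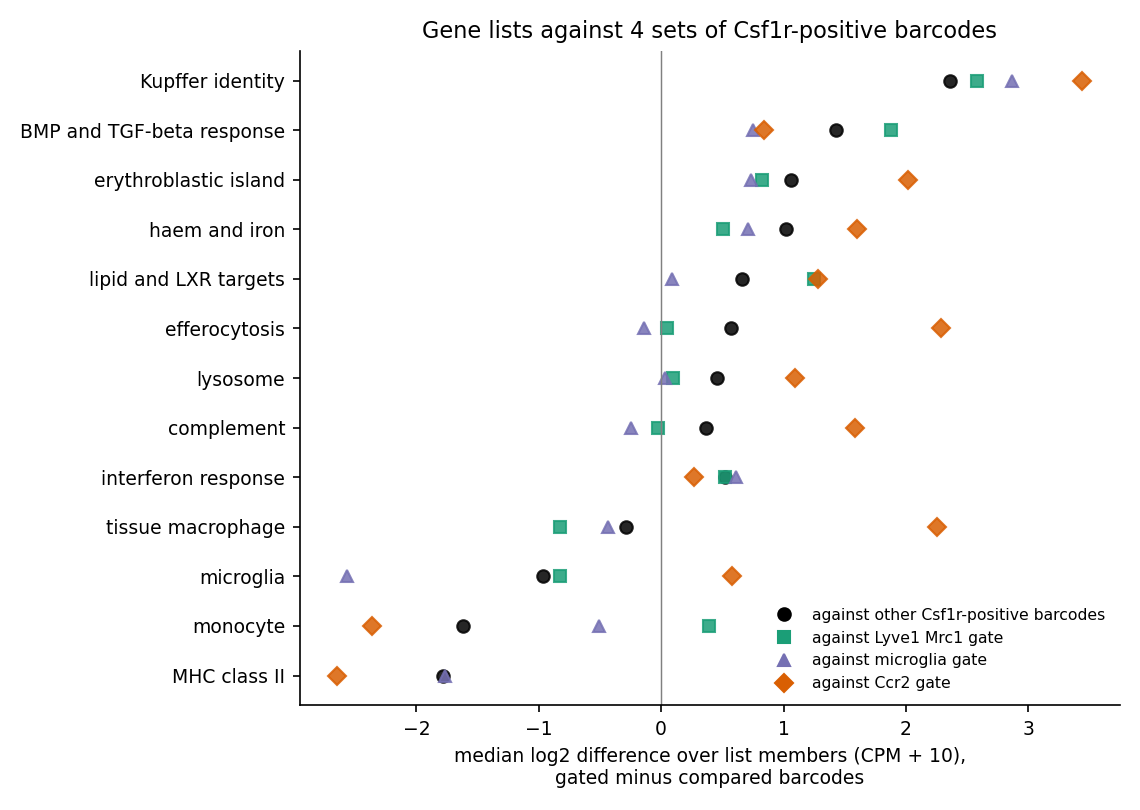
Median log2 difference of CPM + 10 over the compared members of 13 gene lists, gated minus compared barcodes, for 4 sets of Csf1r-positive barcodes; sets with under 3 members compared are left out. The Kupffer identity list lies to the right of 0 by 2.36 to 3.44 against every set, and the efferocytosis, lysosome and complement lists lie near 0 against the Lyve1 Mrc1 and microglia gates. Of the 12 compared Kupffer genes, 8 had under 50 CPM in each compared set and entered only through the gated side. Over all 22 members with no filter the Kupffer medians were 1.01 to 1.38.

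Red cell RNA accompanied the gated barcodes unevenly. Adult globin genes summed to 13375, 5161, 3196 and 4088 CPM in gated barcodes of libraries 1 to 4, against 4144, 2285, 3175 and 3502 CPM in other Csf1r-positive barcodes. Embryonic globins summed to 773, 102, 31.6 and 219 CPM in gated barcodes and 130, 110, 7.002 and 71.0 CPM in the others, so library 2 ran against libraries 1, 3 and 4. Of the 5 globin genes compared, 2, Hbb-bs and Hba-a2, were called higher. Few barcodes held most of these molecules: the richest 12 gated barcodes (the top 1%) held 87.2% of the embryonic and 75.6% of the adult globin UMIs. Without the 10 gated barcodes that had at least 50 embryonic globin UMIs, and without such barcodes among the others, embryonic globins stood at 47.0 against 19.3 CPM. Without the 105 gated barcodes that had at least 50 adult globin UMIs, adult globins stood at 815 against 647 CPM. The median gated barcode held 12 adult globin UMIs, against 9 in the others.

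Of 7 compared erythroid genes other than globins, 2 were called higher, Tfrc and Blvrb, and both also belong to the iron list. With the globin-rich barcodes left out of both sets, an alternative chosen after the data were seen, 127 genes were called higher and 97 lower, and 123 and 92 of these were the ones called before. Hepatocyte genes summed to 798 CPM (525 to 1259 over libraries) in gated barcodes, against 597 (442 to 763), and most of it was transferrin. Afp, alpha-fetoprotein of the fetal liver, had 128 CPM in gated barcodes of library 1, against 43.2 CPM in the other Csf1r-positive barcodes of that library. The part of liver or red cell RNA in the other results was not tested beyond these values.

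tdTomato, the recombination reporter, had 154, 180, 217 and 200 CPM in gated barcodes of libraries 1 to 4, against 107, 156, 141 and 157 CPM in other Csf1r-positive barcodes. It was higher in gated barcodes in each library, and pooled it stood at 184 CPM (exact Poisson 95% interval 178 to 190) against 142 CPM (141 to 143). At 4000 UMIs per barcode, 448 of 1067 gated barcodes held a tdTomato UMI, 42.0% (exact binomial 95% interval 39.0 to 45.0), against 7146 of 24905 other Csf1r-positive barcodes, 28.7% (28.1 to 29.3). The unreduced shares were 59.5 and 49.97%. By library the share was 34.6, 39.9, 50.6 and 48.7% in gated barcodes and 22.6, 29.0, 30.8 and 32.5% in the others.

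The narrower sets showed that this difference was not particular to gated barcodes. The Lyve1 Mrc1 gate held 247 CPM and the microglia gate 309 CPM, both above the gated value, with shares of 40.04 and 48.3%. For the Lyve1 Mrc1 gate, the share and the CPM ran in opposite directions, so no order between it and gated barcodes is read. The Ccr2 gate held 42.7 CPM and a share of 14.0%. Hepatocyte-gated barcodes, in which the reporter is not anticipated, held 68.8 CPM and a share of 23.0% (14 of 61, 13.2 to 35.5), so part of the signal at 1 UMI may be background. Their levels in libraries 1 to 4 were 27.3, 25.9, 98.1 and 79.8 CPM. All Csf1r-negative barcodes together held 200 CPM, above the pooled gated value, with 39.0, 38.9, 223 and 240 CPM in the same libraries. With at least 2 UMIs required, the shares were 22.7% in gated barcodes, 6.56% (4 of 61) in hepatocyte-gated barcodes and 16.1% in other Csf1r-positive barcodes. At 2000 UMIs per barcode the same shares were 8.64% in gated and 9.52% in other Csf1r-positive barcodes, the opposite order, so the order of shares with 2 UMIs depended on the depth chosen.

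**Figure D4:**
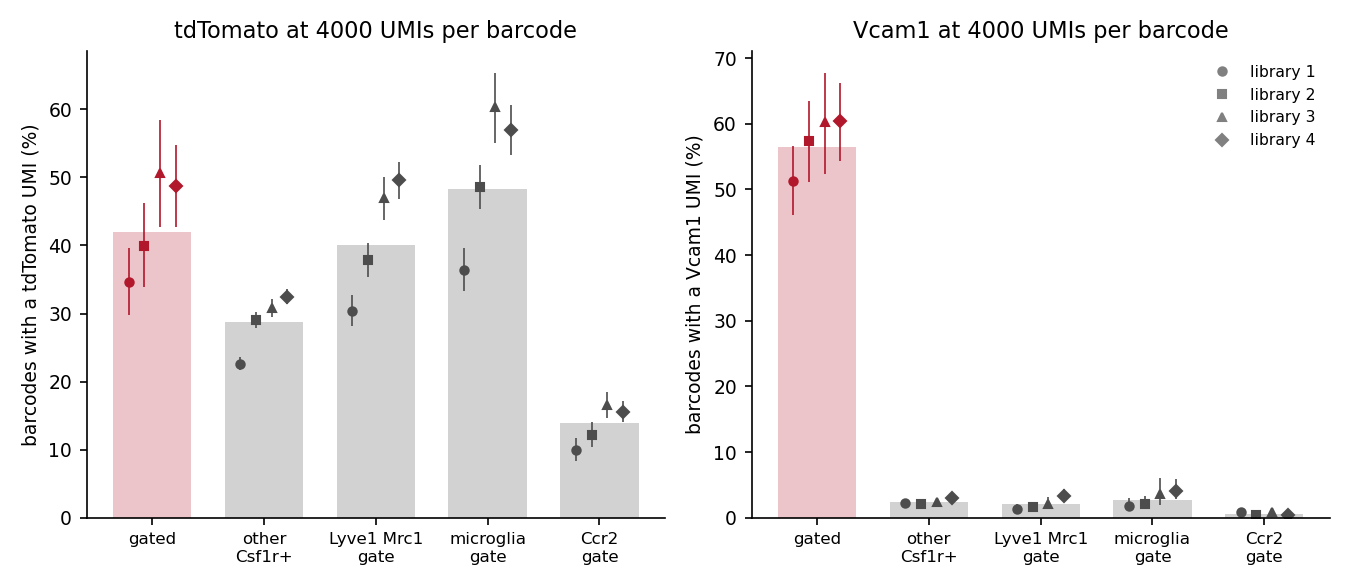
Share of barcodes with a tdTomato UMI (left) and a Vcam1 UMI (right) at 4000 UMIs per barcode, in gated barcodes (red) and in 4 other sets (grey). Bars show the pooled share and symbols the 4 libraries with exact binomial 95% intervals; Vcam1 was found in 56.5% of gated barcodes and in under 3% of the other sets, while tdTomato in gated barcodes (42.0%) lay between the microglia gate (48.3%) and the Ccr2 gate (14.0%).

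Many gated barcodes carried cell-cycle RNA. At 4000 UMIs, 734 of 1067 (68.8%, exact binomial 95% interval 65.9 to 71.6) held at least 2 genes of the G2 or M phase list, against 65.3% of other Csf1r-positive barcodes. By library the gated shares were 63.5, 61.6, 76.5 and 78.0%. The G2 or M list itself lay lower in gated barcodes, with a median log2 difference of -0.30 over 18 genes and none called, as did the S phase list (-0.36 over 14 genes, none called). Share and level ran in opposite directions, so no order is read. Hepatocyte-gated barcodes had a share of 86.9% (53 of 61). How far a share at this depth counts cycling cells was not tested.

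Gated barcodes with and without these genes were also compared with each other. Of 2933 features 51 (1.74%) were at least 2-fold higher in the barcodes with them and 3 (0.102%) lower, and the 51 were mostly cell-cycle genes close to those used for the split, such as Ccna2 and Cdca8. The granule genes Mpo (136 against 13.1 CPM) and Prtn3 (110 against 14.96 CPM), markers of granulocyte progenitors, were among them, and the part of granulocyte RNA in this split was not tested. The 3 lower genes were Pla2g7, Ms4a7 and Spp1, with Ms4a7, a macrophage membrane gene, at 107 against 232 CPM. Barcodes with the cell-cycle genes were deeper, with a median of 17924 against 14056 UMIs.

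Gated barcodes with a Vcam1 UMI at 4000 UMIs were compared with those without. The 603 barcodes with a Vcam1 UMI had 8 of 2925 features (0.274%) at least 2-fold higher than the 464 without, and 9 (0.308%) lower. Among the higher were Clec1b (196 against 57.8 CPM), Fcna (1019 against 462 CPM), Ccl24 (854 against 377 CPM) and Gdf15, a stress-induced cytokine (53.4 against 17.6 CPM). Among the lower were F13a1, the coagulation factor XIII subunit of tissue macrophages (80.2 against 220 CPM), Fcrls (94.4 against 238 CPM), Mef2c (54.1 against 142 CPM) and Ccl4 (133 against 304 CPM). The median log2 difference was 0.59 for the Kupffer list, 0.44 for the erythroblastic island list and 0.30 for the iron list, against -0.02 over all features. Past 2-fold were 2 of 12 compared Kupffer genes, 0 of 12 island genes and 0 of 16 iron genes, so the difference in the island and iron lists was a small one. Barcodes with a Vcam1 UMI had a lower median depth, 13704 against 19194 UMIs.

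Levels followed the number of gate genes. From 3 to 4, 5 and 6 gate genes, Vcam1 stood at 110, 241, 445 and 552 CPM, Clec1b at 24.9, 65.96, 180 and 248 CPM and Slc40a1 at 709, 1010, 1288 and 1437 CPM. Lyve1 ran the other way, at 163, 74.4, 61.3 and 31.3 CPM, and Fcrls at 352, 147, 92.5 and 58.3 CPM. This describes the rule as much as the cells, because the gate genes are Kupffer genes themselves.

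Within the range of 5000 to 40000 UMIs, 521 barcodes with 5 or 6 gate genes were compared with 241 that had 3. Their median depths still differed, at 15731 against 18083 UMIs. In this range 38 of 2974 features (1.28%) were at least 2-fold higher with 5 or 6 gate genes and 41 (1.38%) lower. Higher were Clec1b (223 against 14.1 CPM), Vcam1 (497 against 104 CPM) and the hyaluronan scavenger receptor Stab2 (57.7 against 8.57 CPM). Lower were Spp1 (8.68 against 97.8 CPM), Fcrls (79.7 against 383 CPM), F13a1 (81.9 against 317 CPM), Lyve1 (51.4 against 178 CPM), Cx3cr1, the fractalkine receptor (103 against 322 CPM), and Apoe (5473 against 12289 CPM). The neutrophil genes S100a9 (311 against 62.4 CPM) and S100a8 (460 against 192 CPM) were also higher, with log2 differences of S100a9 from 0.37 in library 1 to 3.28 in library 4. The split used the gate genes, so it describes the rule, and neither the part of granulocyte RNA nor that of mixed droplets was tested.

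**Figure D5:**
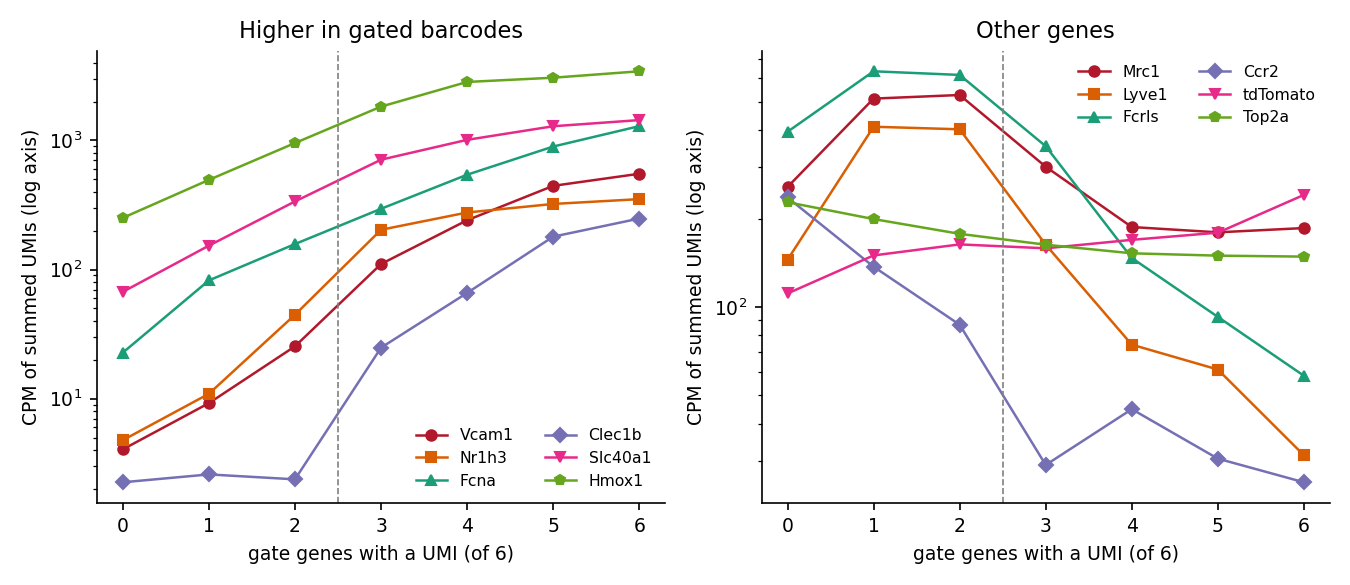
Pooled CPM (log axis) of 12 genes by the number of the 6 gate genes with a UMI, from 0 to 6, among Csf1r-positive barcodes within the microglia limit; the dashed line marks the rule (at least 3). Vcam1 lay at 4.06 CPM with 0 and 552 CPM with 6 gate genes, Clec1b stayed at 2.25 to 2.59 CPM up to 2 gate genes, and Lyve1 and Fcrls peaked at 1 gate gene.

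Gated barcodes were also split by the reporter, although many of those without a tdTomato UMI at 4000 UMIs have one at full depth, so the sets are not cleanly separated. The 448 gated barcodes with a tdTomato UMI at 4000 UMIs and the 619 without differed by at least 2-fold in 2 of 2898 features upward (0.069%) and 2 downward (0.069%). With the reporter, the mast cell protease gene Cma1 stood at 110 against 17.8 CPM and Gdf15 at 56.2 against 21.3 CPM. The globin genes Hba-a1 (1092 against 2498 CPM) and Hba-a2 (799 against 1682 CPM) were lower. Their log2 differences in library 1 were only -0.18 and -0.08, against -2.57, -2.72 and -1.76 for Hba-a1 in libraries 2 to 4. As 12 gated barcodes held 75.6% of adult globin UMIs, few barcodes can make such a difference, and their part was not tested. Cma1 was uneven over libraries in gated barcodes as a whole, at 7.73, 7.89, 178 and 71.8 CPM in libraries 1 to 4. The list of mast cell and lymphocyte genes summed to 193 CPM there (102 to 445 over libraries), against 677 CPM (234 to 1041) in other Csf1r-positive barcodes, and its part in the difference was not tested.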

How the data were processed

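The authors deposited UMI counts per gene and barcode as 1 matrix of 31054 features and 39048 barcodes. Per the file headers its format is that of Cell Ranger 3.0.1, whereas version 2.1.1 and the build mm10 stand in the submitters' processing notes. A barcode was kept with at least 1000 UMIs, 500 genes and at most 10% mitochondrial UMIs, which removed 4461. Counts were summed over barcodes, also per suffix, and scaled to CPM. Because suffixes match no sample label, the matrix was treated as 1 sample, with no test. Differences are log2((CPM + 10)/(CPM + 10)), which understates those of low genes. Features needed 50 CPM on either side. Intervals are exact Poisson or Clopper-Pearson 95% intervals. No doublet caller was run. The comparison of sums was tested on simulated counts and the thinning on kept barcodes of the matrix (Python 3.11.15, numpy 2.4.6, scipy 1.17.1).

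The members and gene lists were chosen with earlier results of these data known. Named genes are compared members of the Kupffer, island and iron lists, of each other list the 6 most abundant and any at least 4-fold different, and the 15 highest and lowest others. Genes under 50 CPM, splits of gated barcodes and promoters were named after their values were seen. Some genes that the rule names are not reported here.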

Additional observations from a re-analysis of the deposited data

How the results depend on the processing

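No paired analysis was possible because the matrix, whose suffixes match no sample, counts as 1 sample and no result comes from a test. Differences within libraries are given as values. Each library was left out in turn: 115 to 138 genes were then higher and 94 to 99 lower, list medians ran from 2.22 to 2.45 (Kupffer), 0.99 to 1.13 (island) and 0.93 to 1.12 (iron), and shares from 39.7 to 45.9% (tdTomato, gated), 27.1 to 30.9% (tdTomato, other Csf1r-positive) and 65.6 to 71.6% (G2 or M, gated).

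A pseudocount of 50 gave 63 higher and 39 lower genes and a Kupffer median of 1.56, and a pseudocount of 1 a Kupffer median of 2.94. A filter at 10 CPM gave 177 higher and 146 lower genes, with medians of 2.09 (Kupffer), 0.85 (island) and 0.53 (iron). With no filter the counts were the same and the medians 1.31, 0.69 and 0.24, since genes near 0 then enter. Applying the gate after thinning to 4000 UMIs gave an island median of 1.28. The tdTomato share was 27.5, 53.0 and 59.5% of gated barcodes at 2000, 8000 and all UMIs, against 21.2, 35.6 and 49.97% of the others. The G2 or M share was 53.2 and 85.7% at 2000 and 8000 UMIs, and 55.1% with 3 genes required.

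Of 4180 values of 209 named genes under the alternatives, 492 moved beyond the range used and 0 were classed as reversed. That class does not take in every change of sign: the endothelial list median, -0.54 in the main setting, reached 1.01 without entering it. Leaving out globin-rich barcodes or shared barcode sequences, both chosen after the data were seen, gave 127 and 126 higher genes. Depth, doublets and free RNA limit shares, and low genes were not compared.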
